A study of Hydra vulgaris with 36 samples.

Results

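Alx is an aristaless-related homeobox gene of Hydra, and codes for a transcription factor of the paired class. It was taken from the deposited count table by its identifier, as 1 of 22608 genes. Gene 100201806's symbol in RefSeq is LOC100201806, with the synonym Alx. Its level was followed through all 36 libraries and 10 groups of a study that lowered the transcripts of Zic4, Sp5 or both by RNA interference (RNAi) in Hydra vulgaris. Zic4 and Sp5 are zinc-finger transcription factors. Every library came from strain Hm_105, with the genotype given as wild type. Per the labels' protocols, 20 to 30 polyps per treatment received siRNA at 1.35 µM in 3 rounds of electroporation, tissue was collected on day 7 after the final round, and the corresponding pieces were pooled in lysis buffer. The titles of the undivided mock libraries carry the letters gfp, and the labels say no more of what the mock animals received. The age of the animals is not given in the sources used here. Levels of the Zic4 and Sp5 transcripts are not analysed here, so the strength of each knockdown was not measured.

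The groups form 2 sets. The divided set holds ectopic tentacles of Sp5 RNAi animals (n = 3), that is tentacles at positions other than the normal ring below the mouth, and distal and proximal parts of original tentacles, those at the normal position. The parts came from Sp5 RNAi (n = 3 each), Zic4 RNAi (n = 4 each) and mock RNAi animals (n = 4 each). The whole set holds ectopic tentacles (n = 4) and undivided original tentacles (n = 4) of animals treated against both genes, called Zic4/Sp5 RNAi here, and undivided original tentacles of mock RNAi animals (n = 3). Distal means towards the tip and proximal towards the base. The labels do not say whether the libraries of a group came from separate cultures, so p-values measure the spread between these libraries, which may be technical. In pooled tissue, fewer cells that hold a transcript and less of it per cell cannot be told apart.

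Aristaless-related genes code for homeodomain proteins that act in the outgrowth of appendages in several animals. In Hydra, Alx is known from the base of the tentacle, where epithelial cells of the body column pass into the tentacle and become battery cells, the large ectodermal cells that house mounted stinging cells. It also appears where new tentacles form in buds and during regeneration of the head. Tentacle cells no longer divide and move outwards to the tip, so the distance from the base is also a distance in time from that passage.

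Libraries held 2.04 to 13.28 M counts, with 2.04 to 10.6 M in the divided set and 7.31 to 13.3 M in the whole set. Alx had 38 to 1539 reads in a library, so its level rested on few reads in the Sp5 RNAi ectopic libraries (38, 40 and 46) and on many in the whole set. Levels are CPM, counts scaled by TMM to a common library size of 1 M, computed within each set. Annexin XII, a gene of tentacle battery cells and the single matched marker of that cell type, was at 1337 CPM or above in every library. The share of counts in the 10 most abundant genes was 14.9% ± 2.04 (SD, n = 4) in mock distal parts and 20.9% ± 2.72 (SD, n = 4) in mock proximal parts. The TMM factors of the mock proximal libraries were low, from 0.541 to 0.777. Replicate 4 of the Zic4/Sp5 RNAi original tentacles stood apart, with 8 genes of nematoblasts and nematocysts, the makers and capsules of stinging cells, at a summed 3005 CPM. The other 3 libraries of that group had 46.1, 37.1 and 311 CPM, and Zic4/Sp5 RNAi ectopic tentacles had 639 to 7061 CPM. The Alx fold changes of that group are given with and without that library, while group means, paired differences and r values include it.

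Within the divided set, Alx was lowest in ectopic tentacles of Sp5 RNAi animals. Their 3 libraries had 5.69, 6.25 and 6.32 CPM, a mean of 6.09 ± 0.346 (SD, n = 3). Sp5 RNAi distal parts had 27.4, 20.2 and 26.6 CPM, and Sp5 RNAi proximal parts had 29.7, 46.9 and 43.5 CPM. Every ectopic library was thus below every library of original tentacles from the same treatment. In Zic4 RNAi distal parts Alx was at 22.3, 38.6, 30.8 and 18.8 CPM, and in Zic4 RNAi proximal parts at 65.6, 31.5, 30.0 and 65.7 CPM. The proximal values fell into a high pair and a low pair, and the low pair lay within the range of the distal libraries. Mock distal parts had 30.4, 31.5, 24.9 and 56.0 CPM, and mock proximal parts had 95.6, 57.0, 66.8 and 74.7 CPM. The highest mock distal library, replicate 4, was just below the lowest mock proximal library, replicate 2.

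The order of the group means, from low to high, was Sp5 RNAi ectopic (6.09 CPM), Sp5 RNAi distal (24.7 CPM), Zic4 RNAi distal (27.6 CPM), mock distal (35.7 CPM), Sp5 RNAi proximal (40.0 CPM), Zic4 RNAi proximal (48.2 CPM) and mock proximal (73.5 CPM). All 3 groups of distal parts therefore lay below all 3 groups of proximal parts. Of the 6 steps in this order, 1 passed the test, that between Sp5 RNAi ectopic tentacles and Sp5 RNAi distal parts. It had a log2 fold change of -2.02 (SE 0.37, edgeR adjusted p 0.000135), in a contrast in which 35.7% of genes were called. The other neighbours did not differ beyond their spread, with edgeR adjusted p-values of 0.907, 0.657, 0.758, 0.654 and 0.116 from the low end to the high end.

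**Figure D1:**
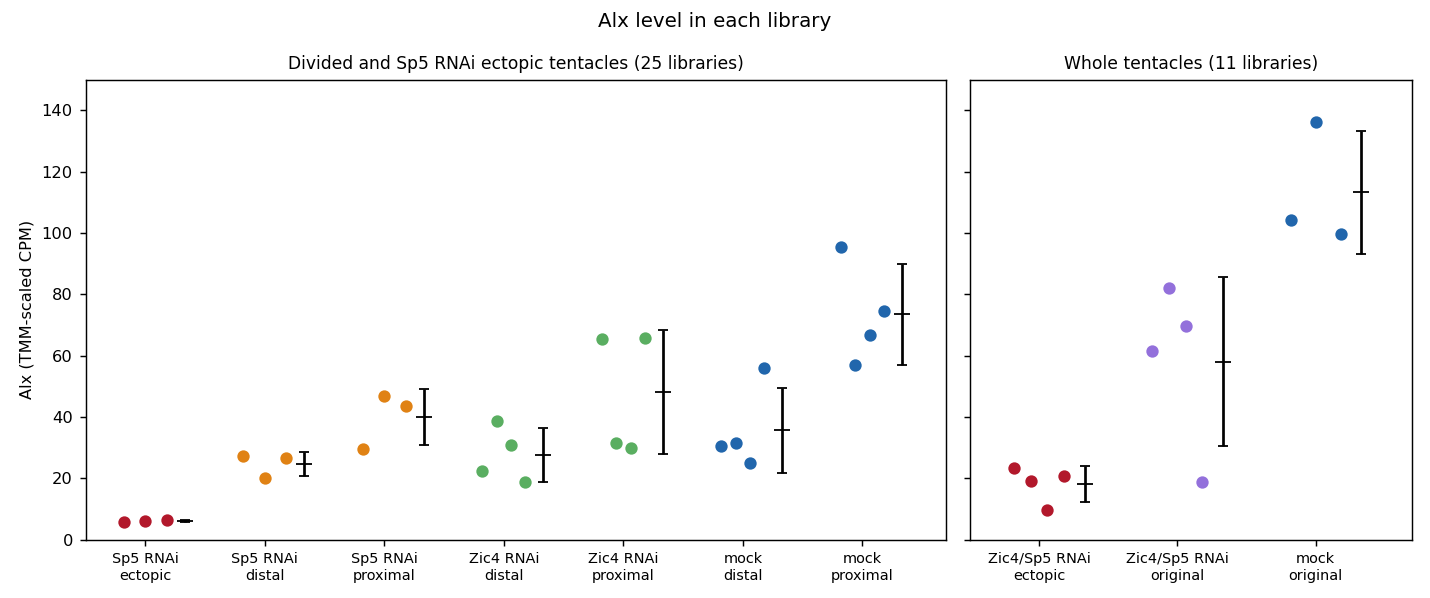
Alx level in TMM-scaled CPM (vertical axis) in each of the 36 libraries, by group, with 1 point per library and the group mean ± SD as a bar beside the points. Each set is scaled apart. The Sp5 RNAi ectopic libraries sit at 5.69 to 6.32 CPM, below all other libraries, and the 3 mock original libraries sit at 99.5 to 136 CPM.

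Sp5 RNAi ectopic tentacles were first set against mock tentacles, which asks how far tentacles at other positions carry the transcripts of normal ones. Alx was 8.34-fold lower in the ectopic tentacles (95% interval 5.06 to 13.8), a log2 fold change of -3.06 against the mean of the mock distal and proximal groups (SE 0.35, edgeR adjusted p 1.90e-07). All 3 ectopic libraries, up to 6.32 CPM, were below all 8 mock libraries, which began at 24.9 CPM. In this comparison 35.7% of the 14332 genes tested were called in either direction, so a call alone was common. The size was less so, since 2.85% of genes had a log2 fold change as low as that of Alx or lower. Against original parts of the same treatment, Alx was 5.16-fold lower in the ectopic tentacles (95% interval 3.15 to 8.44, log2 fold change -2.37, SE 0.35, edgeR adjusted p 1.11e-05). Of all genes 27.3% were called there. The comparisons share the ectopic libraries. Both calls held in every fit without 1 library and in every other model fit tried. Exact permutation tests gave two-sided p-values of 0.00606 and 0.0119, the smallest these numbers of libraries allow, and 0.0800 for both after adjustment over 14 comparisons. These tests shuffled distal and proximal libraries together, 8 of mock and 6 of Sp5 RNAi, as if the parts were alike. As Alx differed between the parts in mock, these p-values may be too small.

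In the whole set, Alx was again lowest in ectopic tentacles. Zic4/Sp5 RNAi ectopic libraries had 23.3, 19.1, 9.56 and 20.7 CPM (mean 18.2 ± 6.0, SD, n = 4), Zic4/Sp5 RNAi original libraries had 61.5, 82.1, 69.7 and 18.8 CPM (mean 58.0 ± 27.5, SD, n = 4), and mock original libraries had 104, 136 and 99.5 CPM (mean 113 ± 20.0, SD, n = 3). The ectopic and mock libraries did not overlap. Alx was 6.23-fold lower in Zic4/Sp5 RNAi ectopic tentacles than in mock (95% interval 3.16 to 12.2), a log2 fold change of -2.64 (SE 0.44, edgeR adjusted p 0.00298). Here 30.0% of the 14826 genes tested were called, and 2.91% of genes had a log2 fold change as low or lower. The call was lost when the share of counts in the 10 most abundant genes was a covariate, at -2.42 (edgeR adjusted p 0.204), a setting that left 33 called genes of 4449. That share was 9.24 to 11.3% in the ectopic and 13.9 to 14.7% in the mock libraries. As these ranges do not overlap, the fit can hardly separate the share from the group.

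The original tentacles of Zic4/Sp5 RNAi animals spanned the range between ectopic and mock tentacles. Their first 3 replicates were at 61.5 to 82.1 CPM, while replicate 4, at 18.8 CPM, lay among the ectopic libraries. Against mock the log2 fold change was -0.97 (SE 0.43, 95% interval -1.91 to -0.02), which missed the threshold (unadjusted p 0.0459, edgeR adjusted p 0.212), although all 4 libraries were below all 3 mock libraries. In that comparison 4.39% of genes were called. Without replicate 4 it was -0.67 (edgeR adjusted p 0.233). Between ectopic and original tentacles of these animals the log2 fold change was -1.67 (SE 0.41, 95% interval -2.58 to -0.76), with an unadjusted p of 0.00200 and an edgeR adjusted p of 0.0989. That value was also the smallest adjusted p of any gene, and 0% of genes were called. Without replicate 4 of the original tentacles the log2 fold change was -1.97 and passed the test (edgeR adjusted p 0.00531). It also passed under DESeq2, at -1.69 (adjusted p 0.00345), and in an edgeR fit of all 36 libraries, at -1.71 (adjusted p 0.00254). Genes called were 2037 of 14653 without replicate 4, 1300 of 14826 under DESeq2 and 904 of 15062 with all 36 libraries. Alx did not pass on library totals alone (edgeR adjusted p 0.0892) or under limma voom (adjusted p 0.201). Nor did it with the share of the 10 most abundant genes as a covariate (edgeR adjusted p 0.463). Another scaling, no filter, a replicate block and the compared groups alone gave no call either. In every fit without an Alx call, 0 genes were called.

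The replicate numbers of the Zic4/Sp5 RNAi ectopic and original tentacles were taken to pair these libraries, since all 4 same-numbered pairs deviated together. The labels do not state this pairing, and differently numbered libraries were not compared. Deviations of same-numbered libraries from different treatments also correlated, at up to 0.526, so the pairing is uncertain. Within pairs, Alx was lower in the ectopic than in the original tentacles by 2.64-fold, 4.31-fold and 7.30-fold for numbers 1, 2 and 3. For number 4 the log2 difference was 0.14, with 20.7 CPM in the ectopic and 18.8 CPM in the original library. Alx was thus lower in 3 of 4 pairs, with a mean log2 difference of -1.55 ± 1.27 (SD, n = 4 pairs).

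The ectopic effects of the 2 treatments were set side by side, since they share no library. On a common scale of all 36 libraries, Alx averaged 6.32 CPM in Sp5 RNAi ectopic tentacles and 16.4 CPM in Zic4/Sp5 RNAi ectopic tentacles, while mock distal, mock proximal and mock original tentacles averaged 36.9, 74.5 and 106 CPM. Relative to the mock libraries of its own set, the Sp5 RNAi ectopic effect minus the Zic4/Sp5 RNAi ectopic effect was -0.35 on the log2 scale (SE 0.50, 95% interval -1.38 to 0.67, edgeR adjusted p 0.857). The difference was not detectable at this precision, and 0.345% of genes were called in that contrast. The treatment, the set and the division of the mock tentacles cannot be told apart in this difference.

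Ectopic tentacles also differed from mock in genes of stinging cells, and their values stand here beside those of Alx. All 8 nematoblast and nematocyst genes of the marker list were higher in Sp5 RNAi ectopic tentacles than in mock (edgeR, adjusted p under 0.05), with a summed 543 to 6815 CPM against 22.4 to 61.8 CPM in mock distal and 63.0 to 330 CPM in mock proximal parts. Of all genes tested, 18.9% were higher there. In Zic4/Sp5 RNAi ectopic tentacles 5 of the 8 were higher, with a summed 639 to 7061 CPM against 32.1 to 107 CPM in mock, and 15.0% of all genes were higher. None of the 8 was at 0 in every library of a group. Among the Sp5 RNAi ectopic libraries the nematocyte sum varied widely, while Alx stayed between 5.69 and 6.32 CPM. The library with 3005 CPM among the Zic4/Sp5 RNAi original tentacles, replicate 4, was the one with the lowest Alx of its group. In Zic4 RNAi proximal and in mock distal parts, by contrast, the library with the highest nematocyte sum had the highest Alx. CnNK-2, a homeobox gene of the foot, was at 1.95 to 3.02 CPM in Sp5 RNAi ectopic tentacles against 0 to 0.723 CPM in mock distal and 0 to 0.163 CPM in mock proximal parts. In the whole set it was at 0.689 to 4.66 CPM in Zic4/Sp5 RNAi ectopic tentacles and 0 to 0.0885 CPM in mock. Original tentacles of treated animals overlapped with the ectopic ranges. They had 0 to 2.36 CPM (median 0) in Sp5 RNAi proximal parts and 0 to 1.34 CPM (median 0.177) in Zic4/Sp5 RNAi original tentacles. All these levels of CnNK-2 were low. The part of other cell types in the lower Alx level was not tested.

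**Figure D2:**
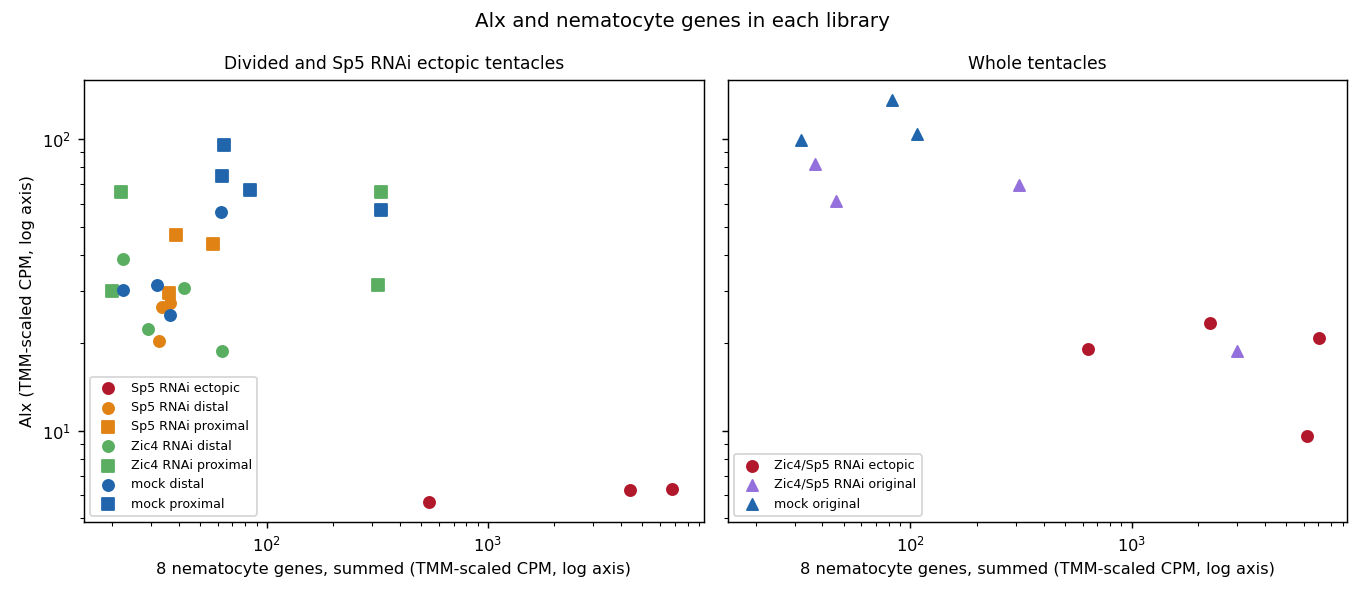
Alx (vertical axis) against the summed level of 8 nematocyte genes (horizontal axis), both in TMM-scaled CPM on log axes, 1 point per library, with the divided set on the left and the whole set on the right. All 7 ectopic libraries lie at a nematocyte sum of 543 CPM or more and at an Alx level of 23.3 CPM or less, and 1 Zic4/Sp5 RNAi original library, at 3005 and 18.8 CPM, lies among them.

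Original tentacles were compared between each RNAi and mock within each part, to ask whether Alx depends on Zic4 or Sp5 where tentacles keep their position. The mean Alx level was lower after RNAi in all 4 comparisons, except that the Zic4 RNAi proximal value turned to 0.17 on library totals alone, and none of the 4 passed the threshold. Sp5 RNAi proximal parts came nearest. Their 3 libraries, at 29.7 to 46.9 CPM, were all below the 4 mock proximal libraries, at 57.0 to 95.6 CPM, with a log2 fold change of -0.88 (SE 0.33, 95% interval -1.56 to -0.19). The unadjusted p was 0.0139 and the edgeR adjusted p 0.114, in a comparison in which 6.68% of genes were called. An exact permutation test over these 7 libraries gave a two-sided p of 0.0286, the smallest it can give, and 0.0800 after adjustment over 14 comparisons. In Zic4 RNAi proximal parts the log2 fold change was -0.61 (SE 0.30, 95% interval -1.22 to 0.00, edgeR adjusted p 0.116), and the libraries overlapped with those of mock. There 33.3% of genes were called, and Alx was not among them. In distal parts the log2 fold change was -0.51 after Sp5 RNAi (SE 0.33, 95% interval -1.18 to 0.16, edgeR adjusted p 0.475) and -0.35 after Zic4 RNAi (SE 0.30, 95% interval -0.97 to 0.27, edgeR adjusted p 0.657). Few genes passed there, 2.29% after Sp5 RNAi and 3.64% after Zic4 RNAi. These comparisons share their mock libraries within each part.

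The effects were also compared with each other. The Zic4 RNAi effect in distal parts minus that in proximal parts was 0.26 (SE 0.42, 95% interval -0.61 to 1.13, edgeR adjusted p 0.786), and the corresponding difference for Sp5 RNAi was 0.37 (SE 0.46, 95% interval -0.58 to 1.31, edgeR adjusted p 0.850). Neither was detectable, and both intervals reach past a change of 1 on the log2 scale. Of all genes, 3.80% were called for the Zic4 difference and 0.0140% for the Sp5 difference. Set directly against each other, Sp5 RNAi and Zic4 RNAi differed in Alx by -0.16 in distal parts (SE 0.32, 95% interval -0.83 to 0.50, edgeR adjusted p 0.907) and by -0.27 in proximal parts (SE 0.33, 95% interval -0.94 to 0.40, edgeR adjusted p 0.654). In these contrasts 0.314% and 3.67% of genes were called.

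Along the tentacle, the mean Alx level was lower in distal than in proximal parts in each treatment, and the difference passed the test in mock tentacles. In mock tentacles Alx was 2.09-fold lower in distal parts, a log2 fold change of -1.06 (SE 0.30, 95% interval -1.69 to -0.44, edgeR adjusted p 0.0105), with no overlap of the libraries and 29.5% of genes called. The call held in each of the 8 fits without 1 library. In Zic4 RNAi tentacles the log2 fold change was -0.80 (SE 0.30, 95% interval -1.41 to -0.19, edgeR adjusted p 0.106), with 5.76% of genes called and overlapping libraries. In Sp5 RNAi tentacles it was -0.69 (SE 0.35, 95% interval -1.41 to 0.02, edgeR adjusted p 0.147), with 22.7% of genes called and no overlap between the parts. The differences between these values are those tested above as differences of the RNAi effects.

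The distance between mock distal and proximal parts moved with the scaling. On library totals alone, without TMM factors, it was -0.38 (edgeR adjusted p 0.363). The median log2 fold change of all genes was then 0.77, against 0.03 with TMM, so Alx was 1.16 below the median of all genes on library totals and 1.09 below it with TMM. Zic4 RNAi proximal against mock proximal moved in the same way, to 0.17 on library totals (edgeR adjusted p 0.705), when the median of all genes was 0.81. With the share of the 10 most abundant genes as a covariate, the mock distal to proximal difference was -1.09 and lost its call (edgeR adjusted p 0.116), and 652 genes were called in place of 4221.

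**Figure D3:**
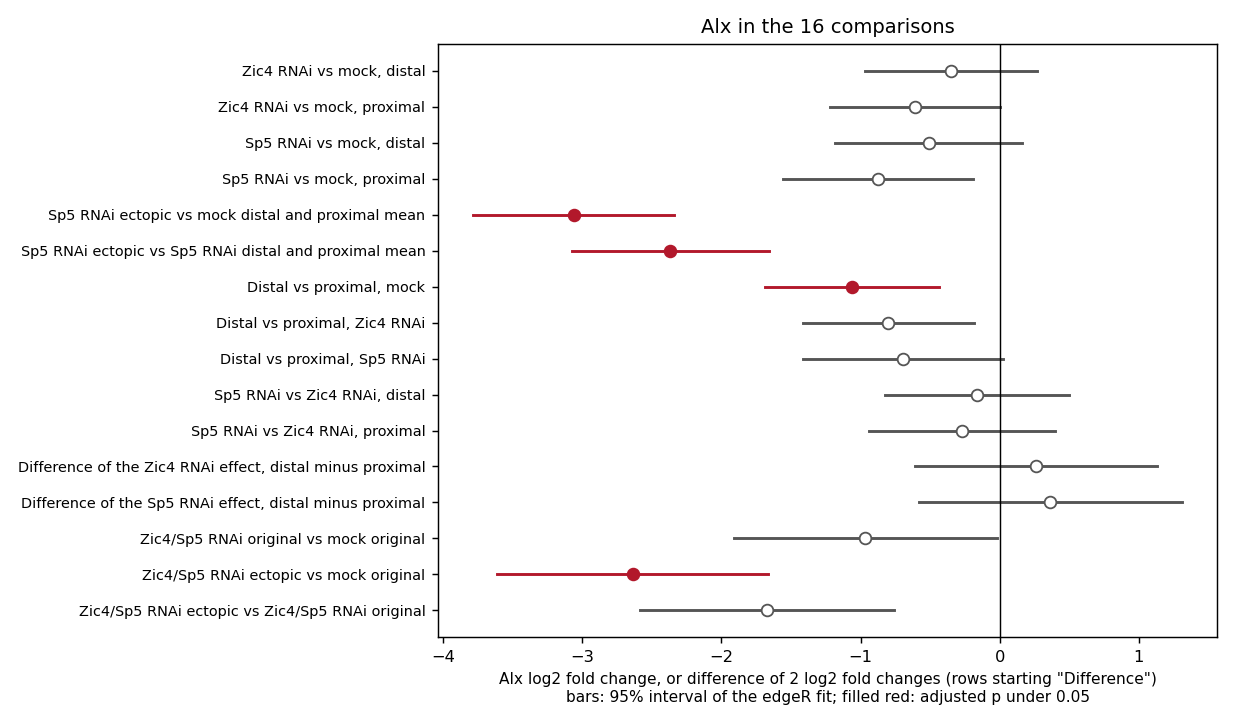
Alx log2 fold changes (horizontal axis) in the 16 comparisons, named at the left with the group that is compared first, with 95% intervals of the edgeR fit. Lines that begin with "Difference" show a difference of 2 log2 fold changes. The 4 filled points, both Sp5 RNAi ectopic comparisons, mock distal against proximal and Zic4/Sp5 RNAi ectopic against mock, passed an adjusted p of 0.05.

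**Figure D4:**
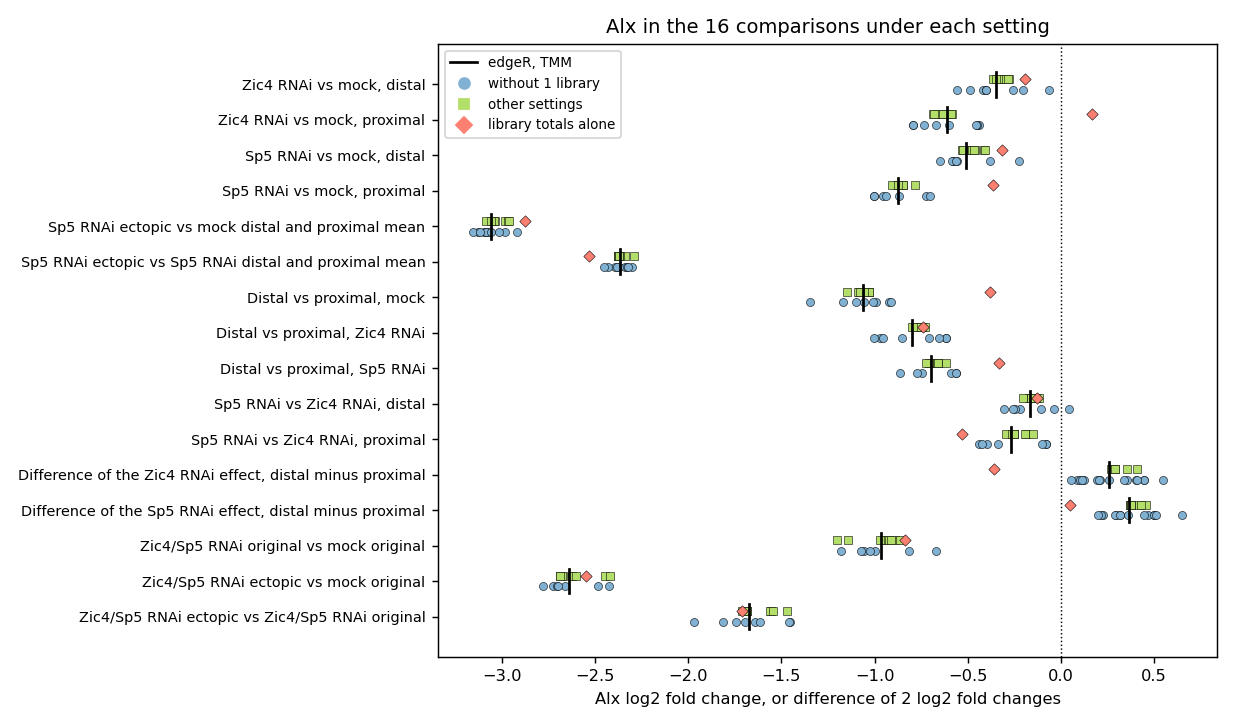
The same 16 values of Alx (horizontal axis, log2) under each setting, with the edgeR value as a black bar, fits without 1 library as circles, library totals alone as diamonds and other settings as squares. The Sp5 RNAi ectopic comparison with mock stays between -3.15 and -2.88, while the diamonds of the Zic4 RNAi proximal effect (0.17) and of its difference between parts (-0.36) lie on the other side of 0.

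CnOtx (LOC100211908), the otx homeobox gene of Hydra, was the other gene of the homeobox list that matched by name. CnNK-2, also a homeobox gene, was kept in the basal disk list, and it was called higher in both ectopic groups against mock (edgeR adjusted p 0.00269 after Sp5 RNAi and 0.0159 after Zic4/Sp5 RNAi). CnOtx fell with Alx in 3 comparisons. In Sp5 RNAi ectopic tentacles it had 81.5 ± 25.7 CPM (SD, n = 3) against 206 ± 106 CPM (SD, n = 8) in mock (log2 fold change -1.22, edgeR adjusted p 0.000307). Relative to the Sp5 RNAi original parts its log2 fold change was -0.66 (edgeR adjusted p 0.0478), and in mock distal against proximal parts it was -1.18 (edgeR adjusted p 0.00101). It also fell where Alx did not pass, to 104 ± 18.3 CPM in Zic4 RNAi proximal parts against 286 ± 94.2 CPM in mock proximal parts (SD, n = 4 each, log2 fold change -1.46, edgeR adjusted p 0.000115), and to 135 ± 4.9 CPM in Sp5 RNAi proximal parts (SD, n = 3, log2 fold change -1.08, edgeR adjusted p 0.0156). In Zic4/Sp5 RNAi ectopic tentacles, where Alx fell, CnOtx had 188 ± 27.5 CPM (SD, n = 4) against 212 ± 31.7 CPM in mock (SD, n = 3, edgeR adjusted p 0.487).

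Tentacle formation in Hydra also involves Wnt ligands, their receptors and beta-catenin, Notch and T-box and forkhead factors. A list of 13 such genes besides Alx matched by name, of which 11 were tested in the divided set and 12 in the whole set. In Sp5 RNAi ectopic tentacles 3 of 11 rose and 4 fell against mock, where 18.9% of all genes rose and 16.8% fell, with a median log2 fold change of -0.51 against 0.05 over all genes. Among those that fell, the Wnt ligands of tentacle outgrowth hywnt8 and hywnt5a had 21.2 ± 2.06 and 90.8 ± 13.6 CPM (SD, n = 3) against 62.5 ± 21.3 and 212 ± 117 CPM in mock (SD, n = 8), with edgeR adjusted p-values of 0.000716 and 0.00122. The mock mean of hywnt5a joins a high distal and a lower proximal level, given below. Its ectopic level lay within the SD of the mock proximal mean. The head Wnt gene LOC100203050 (Wnt3a) and the Wnt receptor gene hyfzd5/8 fell too (edgeR adjusted p 0.00693 and 0.000761). The T-box factor Bra2 rose to 12.9 ± 3.68 CPM (SD, n = 3), against 1.62 ± 1.26 CPM in mock (SD, n = 8, edgeR adjusted p 1.01e-05), and hywnt11 and HyBra1 rose as well. Wnt3a and HyBra1 were near the floor. Together they summed to 1.65 to 12.8 CPM in the ectopic libraries, 2.13 to 10.0 CPM in mock distal and 8.17 to 26.0 CPM in mock proximal parts. HyBra1 was at 0 in every mock distal library. Against Sp5 RNAi original parts 2 of 11 rose and 2 fell, and 13.6% and 13.7% of all genes did.

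In Zic4/Sp5 RNAi ectopic tentacles 3 of 12 rose and 2 fell against mock, where 15.0% of all genes rose and 15.0% fell, with a median log2 fold change of 1.21 against 0.08 over all genes. Those that fell were hywnt5a, with 92.7 ± 17.5 CPM (SD, n = 4) against 155 ± 31.7 CPM in mock (SD, n = 3, edgeR adjusted p 0.0337), and the Notch receptor gene LOC100200510, with 38.3 ± 5.38 CPM (SD, n = 4) against 83.6 ± 12.8 CPM in mock (SD, n = 3, edgeR adjusted p 0.0128). The same 3 names rose as in Sp5 RNAi ectopic tentacles, hywnt11, HyBra1 and Bra2. In Zic4/Sp5 RNAi original tentacles 1 of 12 rose, HyBra1, and none fell, where 2.36% of all genes rose and 2.03% fell. Between ectopic and original tentacles of these animals 0% of all genes passed, and so none of the 12.

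In distal parts of mock tentacles 3 of the 11 genes were higher and 2 lower than in proximal parts, where 15.9% of all genes were higher and 13.6% lower, so counts this small do not set the list apart. Hywnt5a ran opposite to Alx there, at 314 ± 58.9 CPM in distal and 110 ± 31.5 CPM in proximal parts (SD, n = 4 each, log2 fold change 1.51, edgeR adjusted p 0.000117). The beta-catenin gene ctnnb1 and the Notch receptor gene LOC100200510 were higher in distal parts too (log2 fold changes 1.02 and 0.94, edgeR adjusted p 0.0153 and 0.0164), and Wnt3a and hywnt7 were lower (edgeR adjusted p 0.00730 and 0.00996). In Zic4 RNAi and in Sp5 RNAi tentacles hywnt5a was the single gene of the list that passed between distal and proximal parts, higher in distal parts in both. Of all genes, 3.71% were higher and 2.04% lower in distal parts of Zic4 RNAi tentacles, and 10.6% and 12.1% in distal parts of Sp5 RNAi tentacles. Against mock, 2 of 11 rose and 1 fell in Zic4 RNAi proximal parts, where 17.7% of all genes rose and 15.6% fell. In Zic4 RNAi distal parts 2 rose and none fell (2.32% and 1.33% of all genes), in Sp5 RNAi proximal parts 1 rose and 2 fell (4.32% and 2.37%), and in Sp5 RNAi distal parts none passed (1.69% and 0.600%). Annexin XII fell with Alx in Sp5 RNAi ectopic tentacles, to 3313 ± 213 CPM (SD, n = 3) against 7844 ± 5943 CPM in mock (SD, n = 8, edgeR adjusted p 0.0486), and in mock distal against proximal parts (log2 fold change -1.70, edgeR adjusted p 0.00284). Unlike Alx, it was not below all mock libraries. The ectopic libraries, at 3175 to 3558 CPM, lay within the range of mock distal parts (1886 to 7783 CPM) and below mock proximal parts (7119 to 17322 CPM). Annexin XII also fell in Zic4/Sp5 RNAi ectopic tentacles against mock (log2 fold change -0.58, edgeR adjusted p 0.0360). Elsewhere its calls were not those of Alx. It fell in Zic4 RNAi proximal parts against mock, to 3123 ± 426 against 11988 ± 5385 CPM (SD, n = 4 each, log2 fold change -1.94, edgeR adjusted p 0.000790), and in Sp5 RNAi distal against proximal parts (log2 fold change -2.48, edgeR adjusted p 0.00111), where Alx did not pass. Between Sp5 RNAi ectopic tentacles and Sp5 RNAi original parts, where Alx fell, its log2 fold change was -0.04 (SE 0.39, edgeR adjusted p 0.956).

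Genes whose level followed that of Alx most closely were sought over the 25 libraries of the divided set, by Pearson's r of log2 CPM with a prior count of 2, among 8073 genes that averaged 10 CPM or more. These libraries share their groups and their depth and scaling, so r describes these libraries and has no p. Of the 8073 genes, 71 had r of 0.8 or more and 23 had r of -0.8 or less. The 5 highest were gene 100202625 (r = 0.91), LOC100208696 (r = 0.91), LOC105848313 (r = 0.90), LOC100202133 (r = 0.89) and LOC100198437 (r = 0.89). None of the 5 has a descriptive name in the RefSeq table, which lists LOC100198437 as a long non-coding RNA. Without the 3 ectopic libraries, over 22 libraries, r was 0.83, 0.84, 0.72, 0.68 and 0.83 in the same order, so the ectopic libraries carried part of it. Over the 11 libraries of the whole set, which were not used to choose them, r was 0.51, 0.96, 0.85, 0.91 and 0.74.

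LOC100208696 followed Alx in both sets and over a wider range. Its group means were 14.1 CPM in Sp5 RNAi ectopic tentacles, 218 CPM in mock distal and 970 CPM in mock proximal parts. In the whole set they were 20.3 CPM in Zic4/Sp5 RNAi ectopic, 145 CPM in Zic4/Sp5 RNAi original and 431 CPM in mock original tentacles. Gene 100202625 parted from Alx in the whole set, with 51.6 CPM in Zic4/Sp5 RNAi ectopic, 107 CPM in Zic4/Sp5 RNAi original and 76.4 CPM in mock original tentacles. The 3 genes most opposite to Alx were gene 100204278 (r = -0.90), LOC100202994 (r = -0.88) and gene 101236740 (r = -0.86). Over the whole set their r was -0.66, -0.45 and -0.36. LOC100202994 had group means of 180 CPM in Sp5 RNAi ectopic tentacles, 20.6 CPM in mock distal and 7.35 CPM in mock proximal parts.

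**Figure D5:**
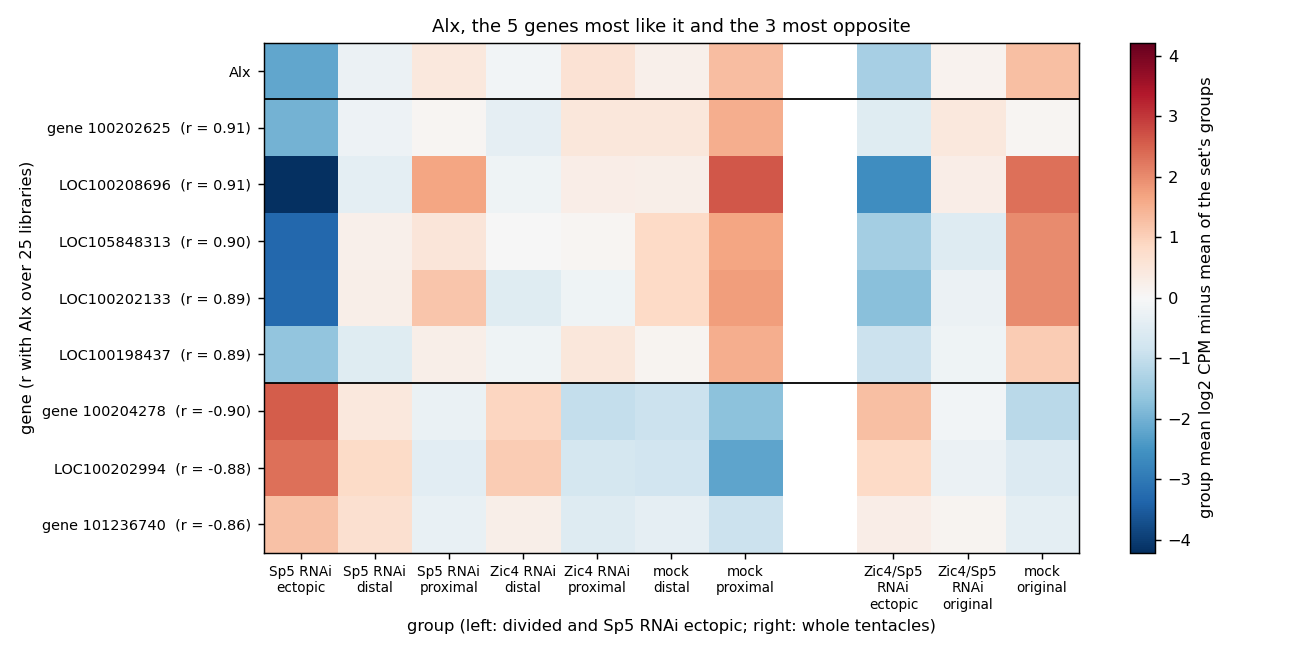
Group means of log2 CPM (colour, relative to the mean over the groups of the same set) for Alx, the 5 genes with the highest r to it and the 3 with the lowest r, in the 7 groups of the divided set (left) and the 3 groups of the whole set (right). Within the divided set the 5 like genes are lowest in Sp5 RNAi ectopic tentacles and highest in mock proximal parts, as Alx is, and gene 100202625 departs from it in the whole set, where r was 0.51.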

How the data were processed

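RNA was sequenced from pooled tentacle tissue, by SmartSeq2 amplification and Tn5 tagmentation per the labels' protocols, which mention no molecular identifiers, so reads of a gene are not independent molecules. The authors deposited raw read counts, 1 whole number for each gene in each library, and these were used unchanged. The submitters' processing notes name bcl2fastq and STAR 2.5.0. The build, the counting program, its use of strand and its handling of shared reads are not given in the sources used here, so reads shared with similar homeobox genes could enter the Alx count. Names came from a RefSeq table of assembly HydraT2T_AEP, which matched 9547 of 22608 identifiers (42.2%). No coordinates or sequences were used.

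All 36 columns were mapped to samples by name, and 0 were left. Within groups, all 48 pairs of libraries differed by more than sampling noise (chi-square per degree of freedom 11.0 to 170). The divided set (25 libraries, 7 groups) and the whole set (11 libraries, 3 groups), each with its own mock libraries, were fitted apart with edgeR 4.0.16 in R 4.3.3 (filterByExpr, TMM, robust quasi-likelihood F test). This left 14332 and 14826 genes. P-values were adjusted by the Benjamini-Hochberg method over the full set of tested genes, with 0.05 as the threshold of a call. Standard errors come from the F statistic, and intervals are at 95%. Contrasts of Sp5 RNAi ectopic tentacles used the average of the distal and proximal groups. The test was checked on simulated counts.

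The numbers of the Zic4/Sp5 RNAi ectopic and original libraries were taken to pair them, as all 4 same-numbered pairs had correlated deviations (0.220 to 0.383). This comes from the data and not from the labels, and differently numbered libraries were not compared. A same-numbered pair from different treatments reached 0.526, so the pairing is uncertain. Alternatives were DESeq2 1.42.0, limma 3.58.1 voom, other scalings and filters, other sets of libraries, a replicate block, a covariate for library complexity, exact permutation and leaving out each library. The 2 settings added after seeing the data were the difference between ectopic effects and the emphasis on Zic4/Sp5 RNAi original replicate 4. Alx and all lists were chosen with earlier results of these data known. The genes named are those with the 5 highest and 3 lowest r to Alx, and list members. The lists covered homeobox, tentacle patterning, battery cell, nematocyte, basal disk, stem and germ line, and hypostome genes.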

Additional observations from a re-analysis of the deposited data

Results flagged for a closer look

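Among 78 groups of 4 libraries tested, over Alx, the genes named for their likeness to it and the marker sums, 7 had a highest or lowest library apart from the others by Dixon's criterion. Chance gives about 1 in 20 such groups. None of the groups of Alx values was among them. Gene 100204278 had 35.98 CPM in Zic4 RNAi distal replicate 4, the highest of its group. LOC100208696 had 465 CPM in mock distal replicate 4, which was also the mock distal library with the highest Alx, at 56.0 CPM. Gene 101236740 had 57.6 CPM in mock proximal replicate 4, and annexin XII, the battery cell marker, had 3761 CPM in Zic4 RNAi proximal replicate 4. The nematocyte sum was 3005 CPM in Zic4/Sp5 RNAi original replicate 4, the library with the lowest Alx of its group. It was 330 CPM in mock proximal replicate 2, the library with the lowest Alx of its group, at 57.0 CPM. Other groups went the opposite way. In Zic4 RNAi proximal replicate 4 and mock distal replicate 4 the highest sum of the group, 327 and 61.8 CPM, stood with its highest Alx, 65.7 and 56.0 CPM. The sum of the 3 stem and germ line genes was 278 CPM in Zic4/Sp5 RNAi ectopic replicate 1, the lowest of its group.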

How the results depend on the processing

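Over 347 alternative values of the Alx results, 334 kept their direction and their side of the threshold. Exact permutation was judged there on its unadjusted p. After adjustment over 14 comparisons, the permutation p was 0.0800 for every Alx result called in the main edgeR fit. On library totals alone, the Zic4 RNAi proximal effect was 0.17 and the Zic4 difference between parts -0.36, both turned in sign but never called (edgeR adjusted p 0.705 and 0.618), and mock distal against proximal was -0.38, no longer called. That setting moved the median of all genes by 0.81, -0.71 and 0.75. With the complexity covariate, mock distal against proximal was -1.09 and Zic4/Sp5 RNAi ectopic against mock -2.42, both no longer called (edgeR adjusted p 0.116 and 0.204). For Zic4/Sp5 RNAi ectopic against mock, the values of the covariate did not overlap between the groups. The cause of the lost calls was not tested. Sp5 RNAi proximal against mock was -0.87 by the exact permutation test, with an unadjusted p of 0.0286, the smallest possible. That p was 0.0800 after adjustment over 14 comparisons. The unadjusted edgeR p was already 0.0139, so on a like measure the side of the threshold did not change. Sp5 RNAi against Zic4 RNAi in distal parts was 0.043 without Zic4 distal replicate 2, and ranged from -0.31 to 0.043 without 1 library. Zic4/Sp5 RNAi ectopic against original became a call under DESeq2 (-1.69), with all 36 libraries (-1.71) and without original replicate 4 (-1.97, range -1.97 to -1.46 without 1 library). In these 3 settings 1 step in the order of the whole set passed, against 0 otherwise (0 to 1 without 1 library).

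With the replicate number as a block, no Alx call changed. Sp5 RNAi ectopic against mock was -2.97, mock distal against proximal -1.08, Zic4/Sp5 RNAi ectopic against mock -2.45 and against original -1.56 (edgeR adjusted p 0.0959). Outside that last pair the same-numbered libraries were taken to share only a number. Correlations of deviations ran from -0.558 to 0.526 over all 67 same-numbered pairs, those of that last pair of groups included, and both extremes lay outside it. The block left 512 of 958 calls for Sp5 RNAi proximal, 335 of 651 for Zic4/Sp5 RNAi original, 18 of 45 for Sp5 RNAi against Zic4 RNAi in distal parts and 348 of 545 for the Zic4 difference.

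Counts of called genes, behind the percentages given, ranged more than the Alx values. From the lowest to the highest setting they were 11 to 6673 for Zic4 RNAi proximal (4766 as reported), 200 to 757 for Zic4 RNAi distal (522), 88 to 2195 for Sp5 RNAi proximal (958), 103 to 589 for Sp5 RNAi distal (328) and 2647 to 5694 for Sp5 RNAi ectopic against mock (5111). They were 652 to 6568 for mock distal against proximal (4221), 173 to 1544 for Zic4 RNAi (825), 1193 to 3834 for Sp5 RNAi (3255), 4 to 215 and 71 to 1189 for Sp5 RNAi against Zic4 RNAi in distal (45) and proximal parts (526), and 0 to 2060 and 0 to 22 for the Zic4 and Sp5 differences (545 and 2). In the whole set they were 33 to 6668 for ectopic against mock (4449), 56 to 1876 for original against mock (651) and 0 to 2037 for ectopic against original (0, with 3032 at an unadjusted p under 0.05). The permutation test cannot go below 0.1 for Sp5 RNAi distal against proximal and was not run for the differences of effects. Depth limits Alx most in Sp5 RNAi ectopic tentacles, at 38 to 46 reads.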

Other observations

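The remaining marker lists were read beside the Alx results. The 3 stem and germ line genes hywi, myc1 and myc2 summed to 423 to 434 CPM in Sp5 RNAi ectopic tentacles, 160 to 306 CPM in mock distal and 240 to 541 CPM in mock proximal parts. In the whole set they summed to 278 to 422 CPM in Zic4/Sp5 RNAi ectopic, 224 to 304 CPM in Zic4/Sp5 RNAi original and 172 to 192 CPM in mock original tentacles. The 2 hypostome genes Wnt3a and HyBra1 summed to 1.65 to 12.8 CPM in Sp5 RNAi ectopic tentacles, 2.13 to 10.0 CPM in mock distal and 8.17 to 26.0 CPM in mock proximal parts, with HyBra1 at 0 in every mock distal library. In the whole set they summed to 19.3 to 142 CPM in Zic4/Sp5 RNAi ectopic, 4.88 to 262 CPM in Zic4/Sp5 RNAi original and 3.71 to 13.5 CPM in mock original tentacles. The original libraries of Zic4/Sp5 RNAi animals thus spread widely in the hypostome genes, but not in the order of Alx. Their hypostome sum was highest in replicate 3, where Alx was at 69.7 CPM. The lowest Alx, 18.8 CPM, was in replicate 4, with a hypostome sum of 113 CPM.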
